A study of Rattus norvegicus with 21 samples.

Results

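Hgf, Met, Mst1, Hgfac, Spint1 and St14 encode 2 related growth factors, a receptor, and the proteases and inhibitor that act on the growth factors outside the cell. They were picked by name. Each of the 6 genes was represented by a probe set annotated to that gene alone, and all 6 were measured, among 14217 genes with such a probe set on the array. No member had a further probe set to compare, so each profile rests on 1 probe set.

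Hepatocyte growth factor (HGF, gene Hgf) is made by mesenchymal cells, in the liver mainly by stellate and sinusoidal endothelial cells, and is secreted as an inactive precursor. Cleavage by serine proteases, among them HGF activator (Hgfac, a plasma protein from hepatocytes) and matriptase (St14, a protease of epithelial cell surfaces), turns it into the ligand of the receptor tyrosine kinase Met, which drives growth, movement and survival of epithelial cells and is needed for liver regeneration. Macrophage stimulating protein (MSP, gene Mst1, not the Hippo kinase that shares this short name) is a close relative of HGF from hepatocytes with a receptor of its own, Ron (Mst1r). The membrane protein HAI-1 (Spint1) inhibits both HGF activator and matriptase.

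The values are log2 expression levels from Affymetrix rat arrays of 21 tissue pieces from 9 male young adult Fischer 344 rats, inoculated simultaneously and all bearing tumours. The groups were BDEneu intrahepatic cholangiocarcinoma at days 10, 15 and 25 after inoculation, a peritoneal metastasis at day 25, and the normal right liver lobe at days 10, 15 and 25, with 3 arrays from 3 rats in each of the 7 groups. BDEneu cells are rat bile duct cells transformed with an activated neu (Erbb2) oncogene, so all tumours share 1 cell line and 1 driver. The liver lobes come from the same tumour-bearing rats, and no liver of an uninoculated rat was analysed here. The metastases come from the 3 rats of day 25. Titles put the third liver group at day 25 while its descriptions name a later day, and day 25 was used.

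Array medians lay between 5.98 and 6.06 log2, and replicates correlated with r of 0.951 to 0.996 over all probe sets, lowest among the day 25 tumours. The labels held against marker genes in that all 9 biliary epithelium genes measured were higher in tumours than in livers and 14 of 15 hepatocyte genes were lower. Of all genes 36.8% were called higher and 37.8% lower in that comparison. The tumour pieces nevertheless carried hepatocyte transcripts, with a mean log2 level over the 15 genes of 7.62 to 11.36 in single tumours, 5.62 to 6.31 in metastases and 12.16 to 12.72 in livers. The lowest tumour, at 7.62, was replicate 1 of day 25 (rat 7). Pancreatic acinar transcripts were over 1 log2 above the median array in replicate 2 of the day 10 tumours, replicate 2 of day 15, replicate 3 of day 25 and replicate 2 of the metastases. These are bulk pieces, so fewer cells of a type and less RNA per cell cannot be told apart. Levels near or under the array medians have no detection call here, and the size of a difference that starts or ends there is a loose guide.

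Promoter sequences of the 3 members that show the opposite directions of the set are given here for reference, 250 bases up to the gene start in the RefSeq rat annotation (build GRCr8), read 5′ to 3′ on the strand of the gene. Of the 6 members 5 had an entry in the sequence table. Capitals mark GTTAAT, the core of the motif of the hepatocyte and biliary factor HNF1, searched on both strands. The motif was chosen after the sequences were seen.
Hgfac, chr14:79938774-79939023, minus strand: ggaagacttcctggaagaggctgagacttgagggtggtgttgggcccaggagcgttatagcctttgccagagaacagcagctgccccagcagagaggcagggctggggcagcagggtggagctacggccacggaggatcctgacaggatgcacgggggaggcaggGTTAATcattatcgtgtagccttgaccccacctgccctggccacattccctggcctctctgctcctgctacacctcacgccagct
Mst1, chr8:117647192-117647441, plus strand: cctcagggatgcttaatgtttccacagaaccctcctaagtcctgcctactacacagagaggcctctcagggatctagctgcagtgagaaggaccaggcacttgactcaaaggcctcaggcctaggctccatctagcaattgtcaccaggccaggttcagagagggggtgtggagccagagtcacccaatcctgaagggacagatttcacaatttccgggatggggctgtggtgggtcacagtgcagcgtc
Spint1, chr3:126685031-126685280, plus strand: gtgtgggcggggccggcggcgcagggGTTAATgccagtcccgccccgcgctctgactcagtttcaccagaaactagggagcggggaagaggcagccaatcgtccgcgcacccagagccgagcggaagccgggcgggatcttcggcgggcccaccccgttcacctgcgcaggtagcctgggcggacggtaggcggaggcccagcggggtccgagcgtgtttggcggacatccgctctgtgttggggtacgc
Hgfac and Spint1 each hold GTTAAT once, although their transcripts moved in opposite directions, and the windows of Mst1, Hgf and Met do not hold it. Of 33469 rat promoter windows of this length, 6.5% hold it on either strand. The Spint1 window is rich in G and C, at 70.4%, against 61.6% for Hgfac, 55.6% for Mst1, 54% for Hgf and 42% for Met, and a median of 51.2% over all windows.

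The comparison of tumour with liver asks how the tumour differs from the organ it grows in, and 4 of the 6 genes were lower and 2 higher. Both ligand genes, the receptor gene Met and the hepatocyte protease gene Hgfac were lower in tumours, while the epithelial protease gene St14 and the inhibitor gene Spint1 were higher. In the limma fit over all 21 arrays, all 6 members were called between tumours and livers with the 3 days together (adjusted p under 0.05), 4 lower and 2 higher, and 5 of them had no overlap between the 9 tumour and the 9 liver arrays. This contrast is broad: 74.6% of all genes tested were called, 37.8% lower and 36.8% higher, and 32.2% had no overlap. That the members were called is therefore close to the background, and the sizes and the course over days carry the description.

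**Figure D1:**
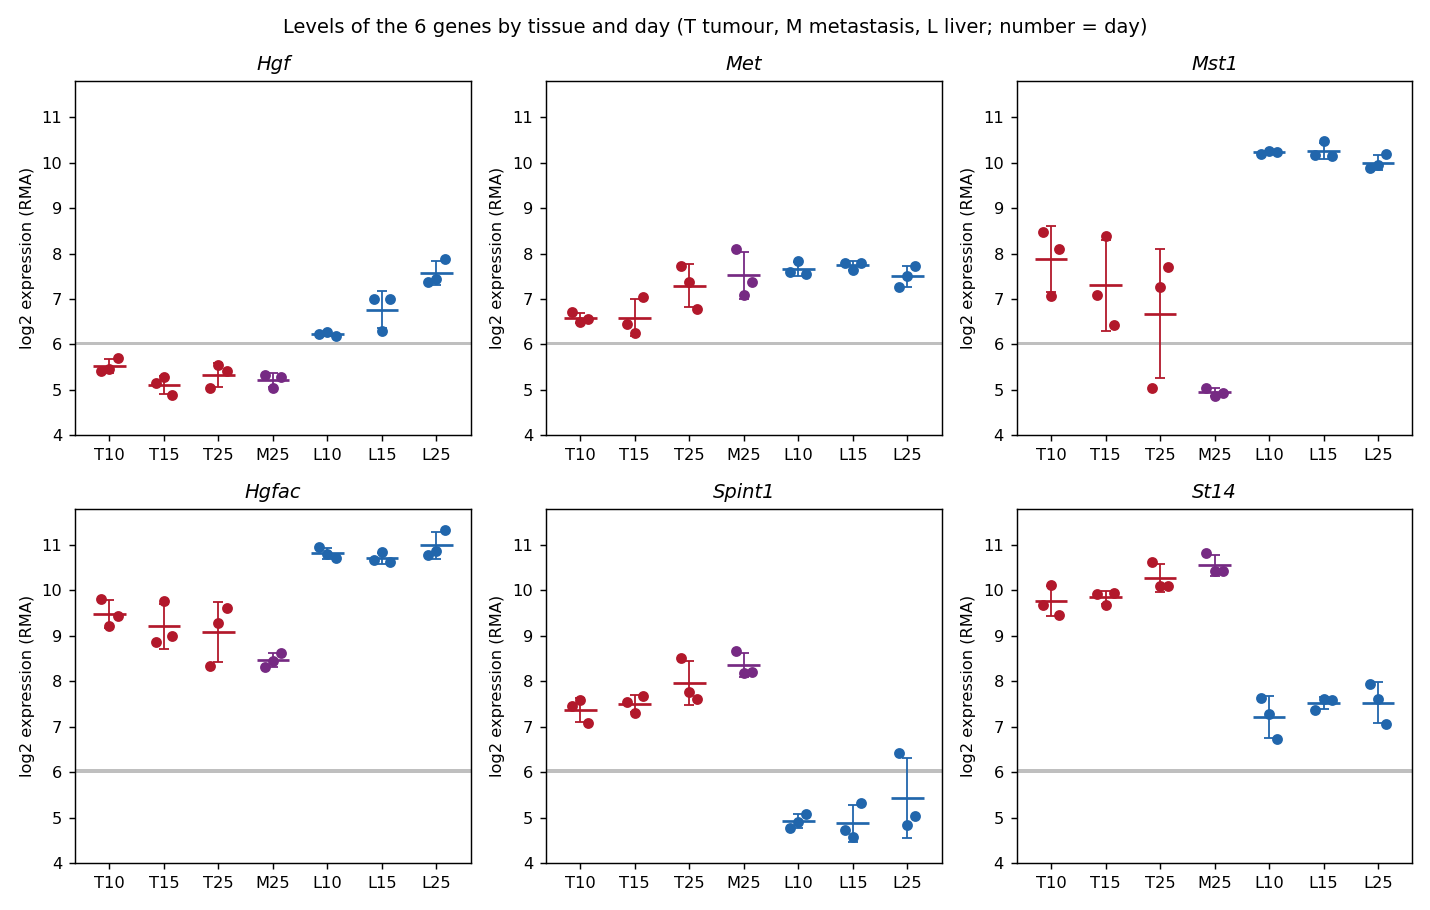
Log2 expression of the 6 genes in each of the 21 arrays, grouped by tissue and day (T tumour, M metastasis, L liver); points are arrays, horizontal lines group means, bars SD (n = 3), and the grey band spans the array medians, 5.98 to 6.06. Hgf is higher at each later day in liver and stays between 4.89 and 5.70 in tumours, Mst1 is below the band in all 3 metastases and in 1 tumour, and Spint1 and St14 are higher in every tumour and metastasis than in any liver.

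Hgf, the ligand gene of Met, was low in tumours at every day. Log2 levels in tumours were 5.42, 5.46 and 5.70 for day 10, 5.14, 5.28 and 4.89 for day 15, 5.04, 5.54 and 5.42 for day 25 and 5.32, 5.04 and 5.28 in the metastases, against 6.22, 6.28 and 6.19 in the day 10 livers, 7.01, 6.30 and 6.99 at day 15 and 7.38, 7.45 and 7.87 at day 25. All 12 tumour and metastasis arrays lay under the lowest array median and all 9 livers above the highest. Over all days Hgf was lower in tumour by 1.53 log2 (SE 0.11, adjusted p = 2e-09), with means of 5.32 ± 0.25 in tumours and 6.85 ± 0.63 in livers (SD, n = 9 each), and it was lower in 9 of 9 rats. Metastases were lower than day 25 livers by 2.35 (SE 0.19, adjusted p = 4.3e-08) and differed from day 25 tumours by -0.12 (SE 0.19, adjusted p = 0.91; -0.24 and adjusted p = 0.049 with array weights). Array weights called 5555 of 14217 genes in metastases against day 25 tumours, against 48 without them. The order of the group means was day 15 tumours (5.11), metastases (5.21), day 25 tumours (5.33), day 10 tumours (5.52), then the livers of day 10 (6.23), day 15 (6.77) and day 25 (7.57). The 4 lowest groups overlapped from neighbour to neighbour, and from day 10 tumours upwards no neighbours overlapped. Between the livers of days 15 and 10, 18.2% of all genes had no overlap, and between those of days 25 and 15, 17.9%.

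Hgf was higher in later livers. In tumours no change with time was called except with array weights (limma's down-weighting of arrays that vary more). All tumour values lay under the lowest array median, and the day 10 livers (6.19 to 6.28) were just above the highest. The sizes of Hgf changes over days and of its gaps between tumour and liver are therefore a loose guide. Liver Hgf at day 25, 7.57 ± 0.27, exceeded that at day 10, 6.23 ± 0.05 (SD, n = 3 each), by 1.34 log2, a factor of 2.52 (SE 0.19, adjusted p = 0.00062). In that comparison 9.1% of all genes were called, 5.33% as higher, and Hgf was the only member called; the other 5 ran from -0.23 (Mst1) to 0.51 (Spint1), with adjusted p of 0.38 to 0.85. Day 25 exceeded day 15, 6.77 ± 0.41, by 0.80 (SE 0.19, adjusted p = 0.034; 2.2% of genes called, 0.823% higher), a call that ended without liver day 15 replicate 2 (0.57, adjusted p = 0.13), without liver day 25 replicate 3 (0.65, adjusted p = 0.081) and when only these groups were fitted (adjusted p = 0.31). Day 15 against day 10 was uncalled at 0.53 (SE 0.19, adjusted p = 0.34; 0.0281% of genes called) and was called without liver day 15 replicate 2, at 0.77 (adjusted p = 0.033), and with array weights, at 0.67 (adjusted p = 0.026). The replicate in question, at 6.30, was near the day 10 livers. Of 14217 genes, 196 were called at day 15 against day 10 without that replicate and 453 with array weights. With all arrays and no weights 4 were called.

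In tumours Hgf at day 25 differed from day 10 by -0.19 (SE 0.19, adjusted p = 0.62; 0.0563% of genes called). Between neighbouring tumour days limma called 0% of genes, no member among them, although 350 genes at days 15 against 10 and 1202 at days 25 against 15 had an unadjusted p under 0.05. Array weights gave 302 and 3987 calls, and those of days 25 against 15 included Hgf (0.38, SE 0.10, adjusted p = 0.01; 0.23 and adjusted p = 0.73 without weights) and Met. The gap between tumour and liver accordingly was -0.71 at day 10, -1.66 at day 15 and -2.23 at day 25 (SE 0.19 each, adjusted p = 0.0039, 2.2e-06 and 1.2e-07; 58.4, 51.8 and 50.1% of genes called). The change of the gap from day 10 to day 25, tested as an interaction, was -1.52 (SE 0.26, adjusted p = 0.012), where 1.46% of all genes were called. It lost its call without tumour day 10 replicate 3 (-1.44, adjusted p = 0.051) and without the arrays that hold acinar transcripts (-1.60, adjusted p = 0.058).

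**Figure D2:**
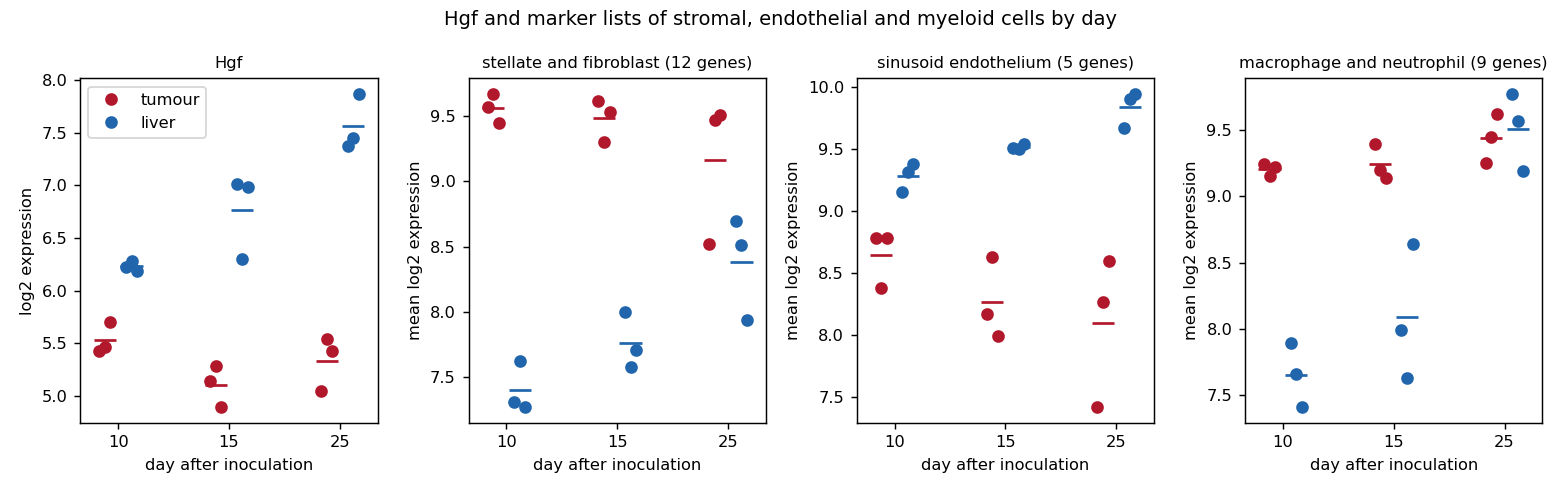
Left panel, log2 expression of Hgf by day in tumour and liver; other panels, the mean log2 level of 12 stellate and fibroblast, 5 sinusoid endothelium and 9 macrophage and neutrophil genes in the same arrays (points are arrays, lines are means of 3). In liver all 4 measures were highest on average at day 25, while in tumours Hgf stayed between 4.89 and 5.70.

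Markers of other cells moved in the same livers. Of all genes 9.1% were called in liver at day 25 against day 10, 5.33% as higher. The mean log2 level of the 12 stellate and fibroblast genes was 7.27 to 7.62 in day 10 livers, 7.58 to 8.00 at day 15 and 7.94 to 8.70 at day 25, with 2 of the 12 higher at day 25 than day 10 (Rgs5, a pericyte gene, by 2.90, adjusted p = 0.011, and the proteoglycan gene Dcn by 2.34, adjusted p = 0.003) and none lower. Ngfr and Thy1 were under the lowest array median in all liver groups, and Lrat, the retinol esterifying enzyme of quiescent stellate cells, differed by 0.07 (adjusted p = 0.93). Over the 5 sinusoid endothelium genes the range was 9.15 to 9.38 at day 10, 9.5 to 9.54 at day 15 and 9.67 to 9.94 at day 25, with 1 of 5 higher (Fcgr2b, 0.89, adjusted p = 0.0087). The 9 macrophage and neutrophil genes ran at 7.41 to 7.89, 7.63 to 8.64 and 9.19 to 9.77, with 6 of 9 higher, led by the neutrophil genes S100a8 (4.44, adjusted p = 0.0014) and Il1r2 (3.67, adjusted p = 2.3e-05). Within the day 25 livers Hgf was highest in replicate 3, where the stellate and the myeloid means were lowest of the 3 (7.94 and 9.19) and the sinusoid mean highest (9.94). Within the day 15 livers Hgf was lowest in replicate 2 (6.30), where the stellate, sinusoid and myeloid means were all lowest of the 3 (7.58, 9.5 and 7.63). In the day 10 livers Hgf varied little, from 6.19 to 6.28. The part of these cells in the Hgf difference was not tested.

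In tumours the stellate and fibroblast list was higher than in liver, at 8.52 to 9.67, with 9 of 12 genes higher and 2 lower (median 1.55, against -0.03 over all genes), while Hgf was lower. The 2 lower genes were Reln, at -1.59, and Lrat, at -1.27, both known from quiescent stellate cells. Of all genes 74.6% were called with the days together, 36.8% higher and 37.8% lower. At day 25 alone, where 50.1% of all genes were called, 5 of the 12 stellate and fibroblast genes were higher and 2 lower (median 0.71, against -0.01 over all genes). With the days together, sinusoid endothelium genes were lower in 4 of 5 cases and higher in 1 (median -1.31), at 7.42 to 8.78 in tumours and 9.15 to 9.94 in livers.

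Mst1, which encodes MSP, had the largest difference from liver of the 6, both in metastases and in tumours with all days pooled. Tumours held 8.47, 7.06 and 8.09 for day 10, 7.08, 8.39 and 6.43 for day 15, 5.05, 7.27 and 7.70 for day 25 and 5.04, 4.87 and 4.94 in the metastases. Livers were at 10.20, 10.26 and 10.24 at day 10, 10.17, 10.47 and 10.16 at day 15 and 9.88, 9.94 and 10.19 at day 25. The 9 livers were tightly grouped, the tumours spread over more than 3 log2, and the tumour of rat 7 was at the level of the metastases. The level was lower in tumour by 2.89 over all days, a factor of 7.39 (SE 0.31, adjusted p = 4.1e-07), and 2.15% of all genes differed by more in size. The deficit was -2.36, -2.97 and -3.33 at days 10, 15 and 25 (SE 0.54 each, adjusted p = 0.0016, 0.00028 and 0.00011), and 9 of 9 rats showed it. Its change from day 10 to day 25 was uncalled at -0.97 (SE 0.77, adjusted p = 0.54). Between day 25 and day 10 tumours Mst1 differed by -1.2 (SE 0.54, adjusted p = 0.27), by -2.12 with an adjusted p = 0.035 without the arrays that hold acinar transcripts, and by -0.85 with an adjusted p = 0.029 with array weights. Of 14217 genes, 8, 578 and 4531 were called in these fits, in the same order.

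Metastases stood lower still against liver of the same day, by 5.06 (SE 0.54, adjusted p = 1.1e-06; 57% of genes called), a size limited by the bottom of the scale because all 3 metastases lay under the lowest array median. Against the day 25 tumours, the metastases averaged 4.95 ± 0.08 and the tumours 6.67 ± 1.42 (SD, n = 3 each). The difference of -1.72 (SE 0.54) was uncalled, with an adjusted p = 0.46, although the arrays did not overlap, as in 10.9% of all genes, and 0.338% of genes were called. Leaving out 1 array gave -2.53 to -1.21, and tumour replicate 1 of day 25 moved the value furthest. Without that replicate the difference was -2.53 with an adjusted p = 0.0029, and with array weights -2.29 with an adjusted p = 6.2e-06. Those fits called 220 and 5555 of 14217 genes, against 48 with all arrays and no weights. In rat 7 metastasis and tumour differed by -0.02, in rats 8 and 9 by -2.40 and -2.75. The order of group means was metastasis, tumours of days 25, 15 and 10, then livers of days 25, 10 and 15; the tumour groups overlapped each other, as did the livers of days 10 and 15.

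Hgfac, the gene of HGF activator, followed the same direction with smaller steps. Tumours held 9.81, 9.21 and 9.44 for day 10, 8.86, 9.77 and 9.00 for day 15, 8.34, 9.28 and 9.61 at day 25, and 8.32, 8.45 and 8.63 in metastases. The livers were at 10.95, 10.81 and 10.71 at day 10, 10.66, 10.85 and 10.62 at day 15, and 10.78, 10.87 and 11.34 at day 25. Every liver was above every tumour and metastasis, and the tumour of rat 7 again had the level of the metastases. Tumours were lower by 1.59 over all days (SE 0.16, adjusted p = 1.6e-07) and the difference was -1.34, -1.5 and -1.92 at days 10, 15 and 25 (SE 0.28 each, adjusted p = 0.00067, 0.00029 and 3.3e-05), in 9 of 9 rats. In metastases Hgfac was lower than in liver by 2.53 (SE 0.28, adjusted p = 1.3e-06) and differed from day 25 tumours by -0.61 (SE 0.28, adjusted p = 0.79; -0.67 and adjusted p = 0.0015 with array weights). Array weights called 5555 of 14217 genes in this last comparison, against 48 without them. Means of 8.47 ± 0.16 in metastases and 9.08 ± 0.66 in tumours (SD, n = 3 each) put Hgfac 2.45 and 3.06 above the median array, unlike Mst1, whose metastasis mean lay 1.07 under it, at -1.07. Ordered by mean, metastasis came first, then tumours of days 25, 15 and 10 and livers of days 15, 10 and 25, and only the step between tumours and livers was free of overlap.

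Both genes are made by hepatocytes, and the hepatocyte markers differed between the same arrays. Among the 9 tumours, the 3 with the highest Mst1 (8.47, 8.39 and 8.09) had the 3 highest hepatocyte means (10.99, 11.36 and 11.08), and the tumour with the lowest Mst1, that of rat 7 at 5.05, had the lowest (7.62). Hgfac was also lowest in the tumour of rat 7, at 8.34, but its ranking at the top differed. The 3 tumours with the highest Hgfac (9.81, 9.77 and 9.61) had hepatocyte means of 10.99, 11.36 and 10.28. The tumour with a mean of 11.08 held Hgfac at 9.44. In metastases, where the hepatocyte mean was 5.62 to 6.31, 9 of the 15 hepatocyte genes had a mean under the lowest array median (Tat, Otc, Hpd, Cyp7a1, Abcb11, Asgr1, Fgb, Pck1 and Tdo2), and so was Mst1, while Hgfac stayed above it. How much of the tumour level of either gene came from liver tissue in the piece was not tested.

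**Figure D3:**
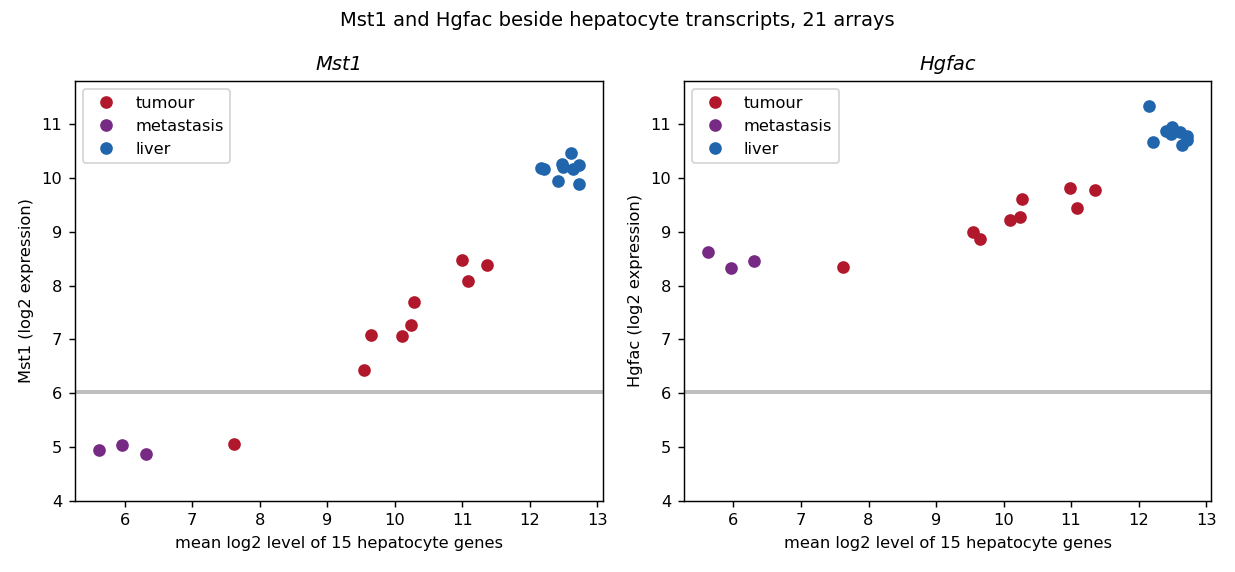
Log2 expression of Mst1 (left) and Hgfac (right) against the mean log2 level of 15 hepatocyte genes in the 21 arrays, by tissue; the grey band spans the array medians. Mst1 spans 5.05 to 8.47 among the tumours and lies at 4.87 to 5.04 in metastases, while Hgfac lies at 8.34 to 9.81 and 8.32 to 8.63.

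Met, the HGF receptor gene, was lower in early tumours and close to liver at day 25. Tumours held 6.71, 6.50 and 6.56 for day 10, 6.45, 6.26 and 7.04 for day 15, 7.72, 7.38 and 6.78 at day 25 and 8.10, 7.09 and 7.38 in the metastases. In livers they were 7.60, 7.83 and 7.55 at day 10, 7.80, 7.63 and 7.79 at day 15 and 7.26, 7.51 and 7.73 at day 25. The early tumours lay clear of the livers of their day, as in 73.3% of all genes at day 10 and 62.5% at day 15, whereas at day 25 tumours, metastases and livers overlapped. Over all days tumours were lower by 0.81, a factor of 1.76 (SE 0.15, adjusted p = 0.00011), with means of 6.82 ± 0.47 in tumours and 7.64 ± 0.18 in livers (SD, n = 9 each), and 26.9% of all genes differed by more in size.

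By day the difference was -1.07 at day 10 (SE 0.25, adjusted p = 0.002), -1.16 at day 15 (SE 0.25, adjusted p = 0.0013) and -0.21 at day 25 (SE 0.25, adjusted p = 0.51). The 3 rats of day 25 disagreed, with tumour minus liver of 0.46 in rat 7, -0.14 in rat 8 and -0.96 in rat 9. The change of the difference from day 10 to day 25 was 0.86 (SE 0.36, adjusted p = 0.23), and with array weights it was called at 0.81 (SE 0.23, adjusted p = 0.024). Within tumours Met was at 7.29 ± 0.48 at day 25 and 6.59 ± 0.11 at day 10 (SD, n = 3 each), a difference of 0.70 (SE 0.25, adjusted p = 0.20) with no overlap between the arrays, as in 27.2% of all genes. Array weights called it at 0.71 (adjusted p = 0.0011), and also called Met at day 25 against day 15 in tumours, at 0.84 (adjusted p = 0.00038), against 0.71 (adjusted p = 0.53) without weights. These weights called 4531 of 14217 genes in tumours at day 25 against 10, against 8 without them. They called 3987 at day 25 against 15, against 0, and 2452 in the change of the difference, against 208. Metastases differed from day 25 tumours by 0.23 (SE 0.25, adjusted p = 0.88) and from liver by 0.02 (SE 0.25, adjusted p = 0.96). The group means ran in the order of tumours at days 15, 10 and 25, liver at day 25, metastasis, and livers at days 10 and 15. Of the 6 neighbouring pairs only the tumours of days 10 and 25 did not overlap. Mst1r, the receptor gene of MSP, had no probe set annotated to it alone and was not analysed here.

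St14, the gene of matriptase, was higher in every tumour than in any liver. Tumours held 9.69, 10.13 and 9.47 for day 10, 9.93, 9.68 and 9.94 for day 15, 10.63, 10.09 and 10.09 at day 25 and 10.82, 10.42 and 10.42 in metastases. Livers were at 7.64, 7.29 and 6.73 at day 10, 7.36, 7.61 and 7.59 at day 15 and 7.94, 7.60 and 7.05 at day 25. The lowest tumour was more than 1 log2 above the highest liver. Tumours were higher by 2.54 over all days, a factor of 5.80 (SE 0.14, adjusted p = 1.5e-10), and by 2.54, 2.33 and 2.74 at days 10, 15 and 25 (SE 0.25 each, adjusted p = 4.1e-07, 1.4e-06 and 3.1e-07), in 9 of 9 rats. In metastases the excess over liver was 3.02 (SE 0.25, adjusted p = 6.2e-08).

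Spint1, the gene of the inhibitor HAI-1, was also higher in every tumour than in any liver. Tumours were at 7.45, 7.58 and 7.08 at day 10, 7.54, 7.30 and 7.68 at day 15 and 8.52, 7.76 and 7.60 at day 25, and metastases at 8.66, 8.19 and 8.21. Livers were at 4.77, 4.90 and 5.08, then 4.73, 4.56 and 5.32, and at day 25 6.43, 4.83 and 5.03. Of the 9 livers 8 lay under the lowest array median, and the liver of rat 7 at 6.43 was the exception. Spint1 was higher in tumour by 2.54 (SE 0.19, adjusted p = 6.1e-09) over all days and by 2.45, 2.64 and 2.53 at days 10, 15 and 25 (SE 0.34 each, adjusted p = 1.5e-05, 9e-06 and 1.6e-05), in 9 of 9 rats. Metastases exceeded liver by 2.92 (SE 0.34, adjusted p = 2.2e-06).

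For both genes the differences from liver at days 10 and 25 were close, with a change of 0.20 (SE 0.35, adjusted p = 0.81) for St14 and 0.08 (SE 0.48, adjusted p = 0.95) for Spint1. Day 25 tumours differed from day 10 tumours by 0.50 (SE 0.25, adjusted p = 0.30; 0.42 and adjusted p = 0.049 with array weights) in St14 and 0.59 (SE 0.34, adjusted p = 0.38) in Spint1. In metastases St14 averaged 10.55 ± 0.23, against 10.27 ± 0.31 in day 25 tumours, and Spint1 8.35 ± 0.26, against 7.96 ± 0.49 (SD, n = 3 each). Those differences, 0.28 (SE 0.25) and 0.39 (SE 0.34), were uncalled, each with an adjusted p = 0.85, and were positive in 3 of 3 rats. Array weights called that of Spint1, at 0.45 (adjusted p = 0.021). These weights called 5555 of 14217 genes in metastases against day 25 tumours, against 48 without them. In tumours of day 25 against day 10 they called 4531, against 8. The means of both genes ran from the livers up through tumours of days 10, 15 and 25 to metastasis. Overlap between neighbours was absent only at the step from liver to tumour and, for St14, between tumours of days 25 and 15, where 12% of all genes had none. The biliary epithelium markers, which mark the cell type of the tumour, had mean levels of 10.96 to 11.71 in tumours, 11.44 to 11.73 in metastases and 6.58 to 8.28 in livers. In the liver of rat 7 they were at 8.28, the highest of the livers, where Spint1 and St14 were also at their liver maxima of 6.43 and 7.94. The liver with the next highest St14, replicate 1 of day 10 at 7.64, had the lowest biliary mean, 6.58. The liver with the next highest Spint1, replicate 3 of day 15 at 5.32, had the next highest biliary mean, 7.61. The part of epithelial cell number in the values of Spint1 and St14 was not tested.

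**Figure D4:**
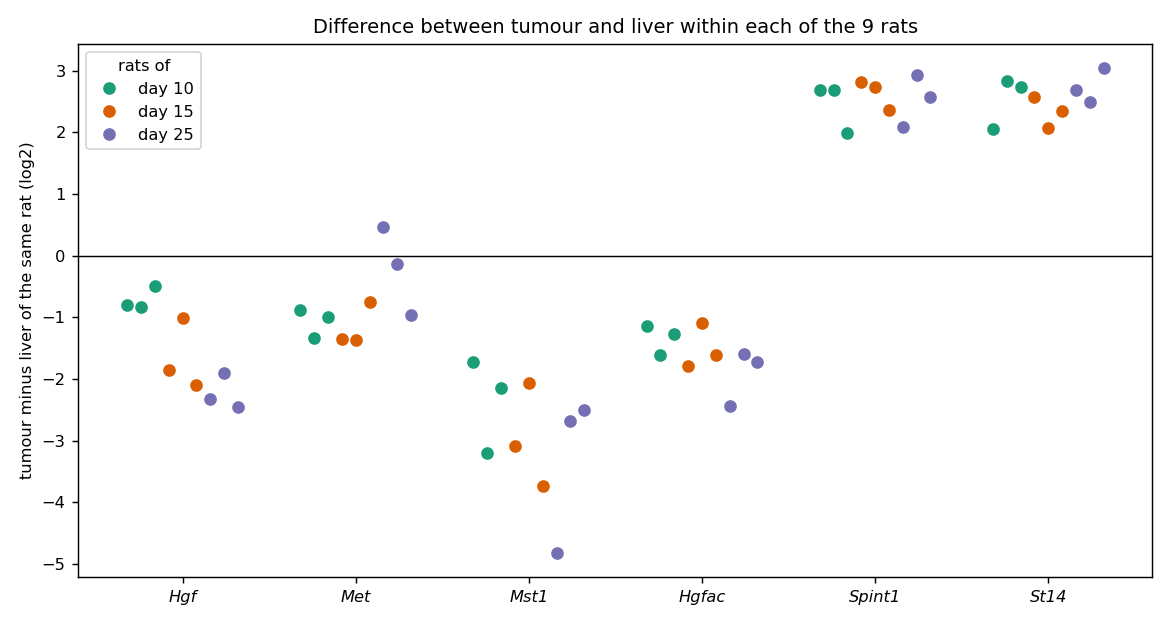
Difference in log2 expression between the tumour and the liver of the same rat for the 6 genes, 1 point per rat, coloured by day (9 rats). Hgf, Mst1 and Hgfac are below 0 and Spint1 and St14 above 0 in all 9 rats, whereas Met runs from -1.37 to 0.46.

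The wider pathway was read from 7 lists of genes that also hold the members Hgfac, St14, Spint1 and Met. St14, Spint1 and Spint2 stand in more than 1 list, so the counts of these lists are not separate from each other or from the members. The counts called in tumours against livers stand beside 74.6% called among all genes, 36.8% higher and 37.8% lower, so a list with most of its genes called is near that background. Among 7 proteases that act on the HGF or MSP precursor, or on HGF activator itself, 4 were lower and 3 higher in tumour over all days. The lower ones are hepatocyte products: hepsin (Hpn, -2.94, SE 0.33, adjusted p = 5e-07), plasma kallikrein (Klkb1, -2.76, SE 0.38, adjusted p = 5.6e-06), prothrombin (F2, -2.25) and Hgfac. Those higher were St14 and the plasminogen activator genes Plat (2.90, SE 0.39, adjusted p = 4.7e-06) and Plau (1.66, SE 0.11). The median of the protease list, -1.59 against -0.03 over all genes, is the value of Hgfac itself. The other lower genes ran from -2.94 to -2.25 and the higher ones from 1.66 to 2.90. Against day 25 tumours, metastases had 1 of the 7 lower, F2 at -5.51 (SE 0.86, adjusted p = 0.0048), and 0 higher. Hpn was then at -1.68 (adjusted p = 0.53) and Klkb1 at -2.39 (adjusted p = 0.26).

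Of 3 inhibitors measured, Spint1 and Spint2 (HAI-2, 0.87, SE 0.07, adjusted p = 1.3e-08) were higher in tumours and Serpina5, the protein C inhibitor, lower by 0.49 (SE 0.07, adjusted p = 6.8e-06), at levels under the array medians. The matriptase list had 5 of 6 genes higher and 0 lower (median 1.09). The 5 include the members St14 and Spint1, and Spint2 of the inhibitor list. F2rl1, the protease-activated receptor that matriptase can cleave, was at 1.30 (SE 0.07, adjusted p = 1.3e-10). The serine protease gene Prss8 (prostasin) was at 0.82 and Tmprss2 uncalled at -0.05 (adjusted p = 0.57).

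Among 6 receptors and co-receptors 3 were higher and 2 lower. Cd44, the hyaluronan receptor that can act as a Met co-receptor, was higher by 4.20 (SE 0.16, adjusted p = 1.2e-12), with means of 10.41 ± 0.33 in tumours and 6.21 ± 0.59 in livers (SD, n = 9 each). Nrp1, a semaphorin and VEGF co-receptor, was higher by 1.24 (SE 0.25) and the heparan sulphate proteoglycan gene Sdc1 by 1.15 (SE 0.10). Met was lower, Plxnb1, a semaphorin receptor gene, was at -0.37 (adjusted p = 0.0013), and Plxnb2 was uncalled at -0.13 (adjusted p = 0.06).

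Receptor shedding and turnover genes were higher in 5 of 7 cases and lower in 2 (median 0.47). The sheddase gene Adam17 and the ubiquitin ligase gene Cbl, which sends activated Met to degradation, were both at 1.29 (SE 0.10 and 0.09), Inppl1 at 0.98 and the phosphatase gene Ptprj at -0.90 (SE 0.12, adjusted p = 4.7e-06). Of 14 adaptors and transducers 9 were higher and 2 lower (median 0.38). The kinase genes Map2k1 (1.96, SE 0.15) and Src (1.27, SE 0.09) and the adaptor genes Crk (1.17) and Shc1 (0.80) were ahead. The 2 lower genes were Stat3, at -0.62 (SE 0.08, adjusted p = 4.2e-06), and Pik3r1, at -0.23 (SE 0.07, adjusted p = 0.0045). The adaptor gene Grb2 was uncalled at -0.01.

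Feedback regulators and Ets factors downstream of the MAP kinase cascade, which Met shares with Erbb2 and other receptors, were higher in 8 of 13 cases and lower in 1 (median 1.24). Etv4, an Ets factor, was at 3.62 (SE 0.30, adjusted p = 1.4e-08), Phlda1 at 2.74 (SE 0.15), the phosphatase gene Dusp5 at 2.35 (SE 0.18) and Spry2, a brake on receptor kinase signalling, at 2.15 (SE 0.17). The lower gene was Dusp4, at -0.16 (SE 0.07, adjusted p = 0.037), and Ets2 was uncalled at -0.18 (adjusted p = 0.33). In metastasis against day 25 tumour none of the inhibitor, receptor, turnover, adaptor, matriptase or feedback genes was called in either direction, in a comparison that called 0.338% of all genes. For the gene of each list with the highest mean over all 21 arrays the differences were Spint2 at 0.27 (adjusted p = 0.80), Sdc1 at 0.08, Ptprj at -0.18, Stat3 at -0.30 and Dusp6 at 0.22 (adjusted p = 0.92).

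In liver at day 25 against day 10, where Hgf was higher and 9.1% of all genes were called (5.33% higher), 2 of 6 receptor and co-receptor genes were higher and 0 lower, Cd44 by 1.07 (SE 0.27, adjusted p = 0.022) and Sdc1 by 1.00 (SE 0.17, adjusted p = 0.0031). Met was at -0.16 (adjusted p = 0.77). Of the 14 adaptors and transducers 5 were higher and 0 lower (median 0.31, against -0.01 over all genes), with the transcription factor gene Stat3 at 0.74 (SE 0.14, adjusted p = 0.0058). Among the proteases Plau was higher by 0.93 (SE 0.19, adjusted p = 0.0066), and the other 6 were uncalled.

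**Figure D5:**
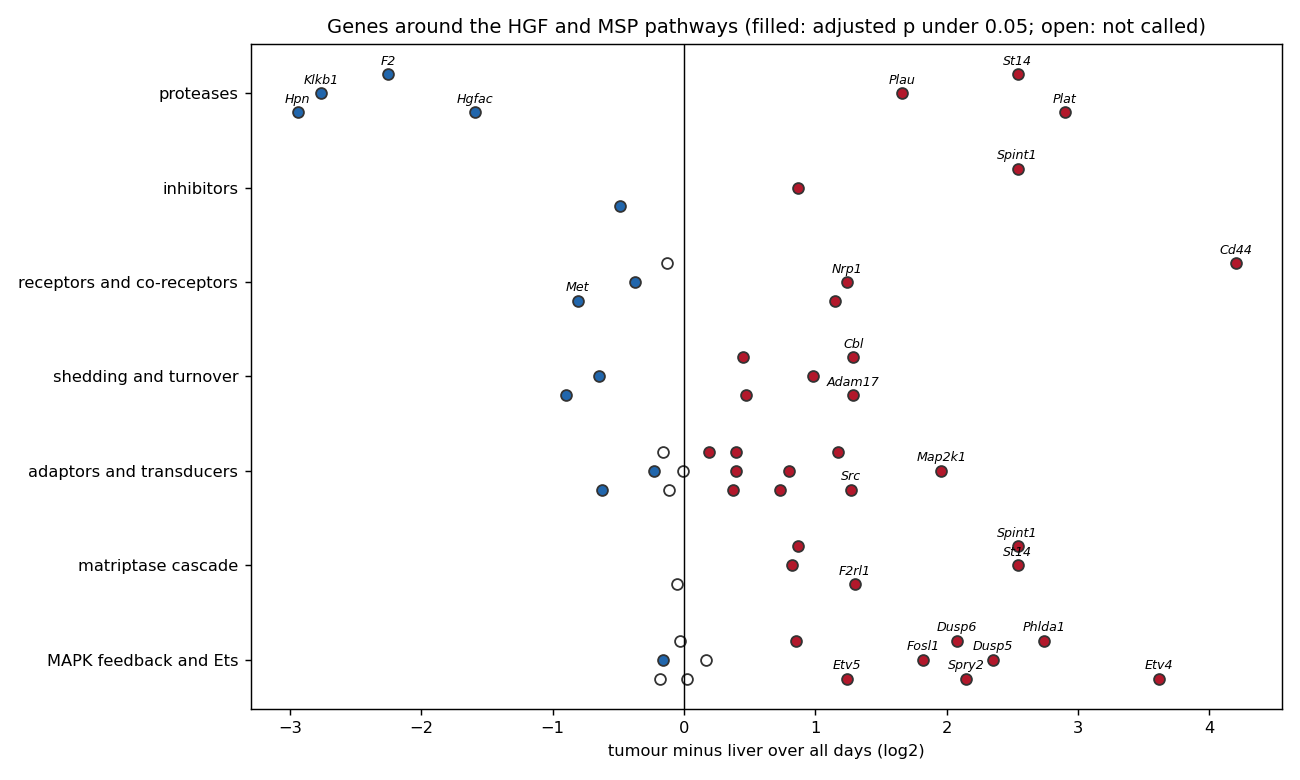
Log2 difference of tumour minus liver over all days for each gene of 7 lists around the HGF and MSP pathways; filled points were called at an adjusted p under 0.05, open points were not, and St14, Spint1 and Spint2 stand in more than 1 list. Proteases fall on both sides, from Hpn at -2.94 to Plat at 2.90, and the feedback list reaches 3.62 at Etv4.

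The genes most like each member were taken as those with the smallest root mean square difference over the 21 arrays, after each gene was centred on its own mean. Hpn, the hepsin gene, was closest to Mst1, at 0.164 log2 where Mst1 itself varied by 1.996, followed by the amino acid transporter gene Slc38a3 (0.238) and the coagulation factor gene F12 (0.24). Nearest to Hgfac were Stard10 (0.213), Rcl1 (0.219) and Hsd17b4 (0.239), against a spread of 0.976. For Hgf they were the integrin gene Itga9 (0.294), the prostaglandin D synthase gene Hpgds (0.321) and Acsf2 (0.342), with a spread of 0.881. Met was closest to Deptor, an mTOR inhibitor gene (0.21), then Pacsin3 (0.295) and Cmtm8 (0.305), with a spread of only 0.526. Spint1 was nearest to Slc7a1 (0.292), Stk17b (0.309) and Sestd1 (0.318), with a spread of 1.435. St14 was nearest to Pdk3 (0.222), Snrpf (0.233) and Schip1 (0.236), with a spread of 1.379. Likeness here is mostly set by the difference between tissues that the samples share.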

How the data were processed

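Expression was deposited on the log2 scale, 1 value for each probe set and array, computed with RMA (which corrects background, brings arrays to 1 distribution and summarises probes), per the submitters' processing notes; the sources used here give no program version. RMA compresses differences at both ends of the scale and hides a shift of most transcripts in 1 direction. The table held 31099 probe sets. The platform annotation names 1 gene for 20826 of them apart from array controls, several for 436, and lists no gene for 9831. Symbols were updated by gene identifier (assembly GRCr8, names only), and the probe set with the highest mean over 21 arrays stood for a gene, which left 14217 genes.

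Groups were fitted together in R 4.3.3 with limma 3.58.1 (7 group means, lmFit, eBayes without a trend), for 13 comparisons, with Benjamini-Hochberg adjustment over all genes. The script was tested on simulated data. Alternatives were a trend or robust prior, array weights, repeated quantile normalization, median centring, a filter on low genes, other probe set rules, only the compared groups, the rat as a block, leaving out arrays with acinar transcripts, and leaving out each array. Titles of the liver arrays name the AS numbers they pair with, and those of tumours and metastases give a replicate number. The rats are numbered here by matching these in order. Deviations from group means correlated between tumour and liver of a rat with r of 0.04 to 0.297. Arrays have no read depth; 3 arrays per group limit the precision. The members were chosen by name and, like the lists, with earlier results of these data known. Named are all members and Mst1r, up to 4 called genes of a list with the largest change, its uncalled gene of highest mean, and the 3 genes most like each member; other names were chosen after their values were seen. The 3 stromal, endothelial and myeloid lists and the hepatocyte, biliary, acinar and mesothelial lists describe other cells and were not tested. The mesothelial list (7 genes) ran at 5.66 to 6.05 in tumours, 5.81 to 6.10 in metastases and 4.98 to 5.49 in livers.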

Additional observations from a re-analysis of the deposited data

Results flagged for a closer look

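The difference of Hgf between tumour and liver changed between day 10 and day 25, by -1.52 on the log2 scale (interaction, adjusted p = 0.012); the group values and the fits in which this call ended stand with Hgf above.

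In groups of 9 arrays a sample was called far from the others when its gap to the nearest, divided by the range, exceeded Dixon's critical value; 18 such tests were made, and chance alone marks about 1 in 20. Spint1 in the tumour of rat 7 was at 8.52, and in the liver of rat 7 at 6.43, each far above the others of its tissue. Hgfac in the liver of rat 9 was at 11.34, above the other livers. The day is not held constant within these groups of 9. The biliary marker mean of the rat 7 liver was 8.28, against 6.58 to 7.61 in the other livers; its part in the Spint1 value was not tested.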

How the results depend on the processing

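No member reversed its direction past the threshold in any alternative. Apart from settings that leave out 1 array, 868 member values stayed as they were, called or uncalled, 12 gained a call and 2 lost it. Without 1 array, 571 stayed as they were, called or uncalled, 2 gained a call and 3 lost one. The losses are the Hgf values given above. The cause of each change below was not tested. Array weights gave calls in metastasis against day 25 tumour to Hgf (-0.24), Mst1 (-2.29), Hgfac (-0.67) and Spint1 (0.45), in tumours to Hgf (0.38) and Met (0.84) at day 25 against 15 and to Met (0.71), Mst1 (-0.85) and St14 (0.42) at day 25 against 10, in liver to Hgf at day 15 against 10 (0.67), and to Met in the change of the tumour to liver difference (0.81). The remaining gain was Mst1 in tumours of day 25 against 10 without acinar arrays (-2.12). Array weights also raised the counts of genes called to 5555 for metastasis against tumour, 302, 3987 and 4531 for tumour days 15 against 10, 25 against 15 and 25 against 10, 453, 533 and 2374 for the same liver days, and 2452 for the change of the tumour to liver difference. The rat as a fixed block was fitted only for comparisons between tissues and for the change of the tumour to liver difference. No member call changed there, with Hgf at -1.53 over all days. Comparisons between days of the same tissue, among them the liver Hgf differences, were not fitted that way. The rat as a random block gave 402 genes for the change of difference and 1 for liver day 15 against 10. That liver comparison had 2 genes with a trend, with repeated quantile normalization and with every probe set, 1 with probe sets averaged, and 0 with a low filter or only its own groups. Tumour day 25 against day 10 had 5 with a low filter, 0 with only its own groups and 578 without the acinar arrays. Testing every probe set gave 21452, 15938, 13147 and 12348 calls for tumours against livers with days together and at days 10, 15 and 25, 14932 for metastasis against liver and 1 for tumour day 25 against 15. Fitting only the compared groups gave 1 for metastasis against tumour, 2 for liver day 25 against 15 and 557 for liver day 25 against 10. Without acinar arrays there were 12 for metastasis against tumour, 1 for tumour day 15 against 10 and 19 for the change of difference. Leaving out 1 array moved the counts within 21 to 220 for metastasis against tumour, 0 to 1, 0 to 7 and 0 to 159 for the tumour days in the order above, 0 to 196, 155 to 522 and 626 to 1651 for the liver days, and 30 to 402 for the change of difference. Mst1 in metastasis against tumour ran from -2.53 to -1.21. Signal near the array medians limits Hgf in tumours and day 10 livers, Mst1 in metastases and Spint1 in livers.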
